A study of Mus musculus with 4 samples.

Results

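The 44 genes described here belong to the unfolded protein response, to the stress programme run by the transcription factor ATF4, and to serine and amino acid supply. They were taken by symbol from a table of 56393 Ensembl genes, and all 44 were found and averaged 50 counts or more over the libraries, as 14187 genes of the table did. The genes fall into an ATF4 arm of 11, an XBP1/ATF6 arm of 13 and an amino acid arm of 20. They were measured by RNA sequencing in the mouse podocyte line MPC, a conditionally immortalised line of the epithelial cells that cover the glomerular capillaries of the kidney. Cells were grown at 33 °C with interferon-γ and differentiated at 37 °C without it for 7 days. The 4 groups were sh-NC (control hairpin, no added glucose), sh-NC/HG (control hairpin, D-glucose to 40 mmol/L for 24 h), sh-JAML (hairpin against Jaml, no added glucose) and sh-JAML/HG (hairpin against Jaml, the same glucose exposure). All 4 groups share the line and the differentiation protocol. How the hairpins were delivered, whether a line was 1 clone, the glucose of the unsupplemented medium and an osmotic control are not given in the sources here.

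Each group had 1 library, so no difference between groups can be set against a spread between cultures. Levels are CPM, counts scaled to the library total with edgeR's TMM factors. Parentheses after a fold hold its 95% interval from counting (exact Clopper-Pearson), which covers counting error only. Where 4 levels stand without labels, their order is sh-NC, sh-NC/HG, sh-JAML, sh-JAML/HG, and a ratio of A over B is above 0 on the log2 scale where A is higher. A pair of libraries was called apart for a gene at a ratio of at least 1.5-fold. Deposited counts summed to between 79330461 and 94341975 per library, and the 44 genes held 0.556% to 0.599% of them. Jaml itself had a count of 0 in all 4 libraries, which allows at most 0.129 to 0.151 CPM, so the labels could not be checked by the targeted gene. Of 14 podocyte markers, 10 reached the floor of 12 units (3 sequenced fragments) in every library, with summed levels of 2314 to 2719 CPM. Among the defining ones, Nphs1 had 17 to 35 units and Tcf21 was at 0 in every library. In bulk RNA, fewer cells of a type and less RNA per cell cannot be told apart.

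When unfolded proteins gather in the endoplasmic reticulum (ER), the sensors PERK, IRE1 and ATF6 respond. PERK, like the amino acid sensor GCN2, phosphorylates the initiation factor eIF2, which slows translation but favours translation of ATF4. ATF4 then drives genes for amino acid uptake, asparagine, serine and proline synthesis and its own feedback inhibitors. IRE1 splices Xbp1 mRNA, and XBP1 and cleaved ATF6 drive chaperones and ER-associated degradation. Podocytes secrete and renew large amounts of membrane and matrix protein, and this response has been studied in them in diabetic kidney disease. Counts per gene carry neither eIF2 phosphorylation nor Xbp1 splicing.

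With the control hairpin, a few members of each arm were apart with glucose, at shares not far from those over all genes. In the sh-NC/HG library, 6 of the 44 genes were at least 1.5-fold below sh-NC, beside 8.96% of all genes tested, and 3 were at least 1.5-fold above it, beside 10.0%. The lower ones were Herpud1, Eif2ak3, Asns, Nupr1, Atf5 and Sel1l, and the higher ones Cth, Aldh1l2 and Cbs. The median log2 ratio was -0.29 in the ATF4 arm, with 9 of 11 genes below 0, against 0.01 in the XBP1/ATF6 arm and -0.09 in the amino acid arm. Over all genes tested the median was 0.00, with 7065 of 14187 genes below 0. The members' shares called were 13.6% lower and 6.82% higher, neither far from the shares over all genes. With the Jaml hairpin, few genes of any kind were apart with glucose: 0 of the 44 were at least 1.5-fold higher in sh-JAML/HG than in sh-JAML, beside 3.57% of all genes, and 1 (Slc7a3) was lower, beside 4.18%, both near the shares over all genes.

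Without added glucose, the members' counts between the hairpins lay near the shares over all genes. In sh-JAML against sh-NC, 2 of 44 were at least 1.5-fold higher (Slc7a3 and Cbs), beside 4.12% of all genes, and 0 were lower, beside 3.90%. In high glucose, sh-JAML/HG held 7 of 44 at least 1.5-fold above sh-NC/HG (Atf5, Asns, Eif2ak3, Ddit3, Herpud1, Sel1l and Slc1a4), 15.9% of them beside 8.35% of all genes. Another 3 (Cth, Aldh1l2 and Cbs) were lower, 6.82% beside 9.86%. This comparison shares the sh-NC/HG library with the glucose comparison in control cells, so the 2 sets of ratios are not separate measurements. All 11 ATF4-arm genes lay above 0 there, with a median of 0.40, against -0.04 in the XBP1/ATF6 arm and 0.05 in the amino acid arm. Of all 14187 genes, 7129 lay above 0 in this pair. At a threshold of 2-fold, 2 of the 44 genes (Cth and Aldh1l2) were higher in sh-NC/HG relative to sh-NC, beside 4.65% of all genes, and 0 lower, beside 3.27%. Relative to sh-NC/HG, sh-JAML/HG had 1 gene at least 2-fold higher (Atf5), beside 2.81%, and 2 lower (Cth and Aldh1l2), beside 4.78%. In sh-JAML/HG against sh-JAML 0 were 2-fold higher, beside 1.31%, and 0 lower, beside 1.56%. The same counts were 0, beside 1.31%, and 0, beside 1.40%, in sh-JAML against sh-NC.

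**Figure D1:**
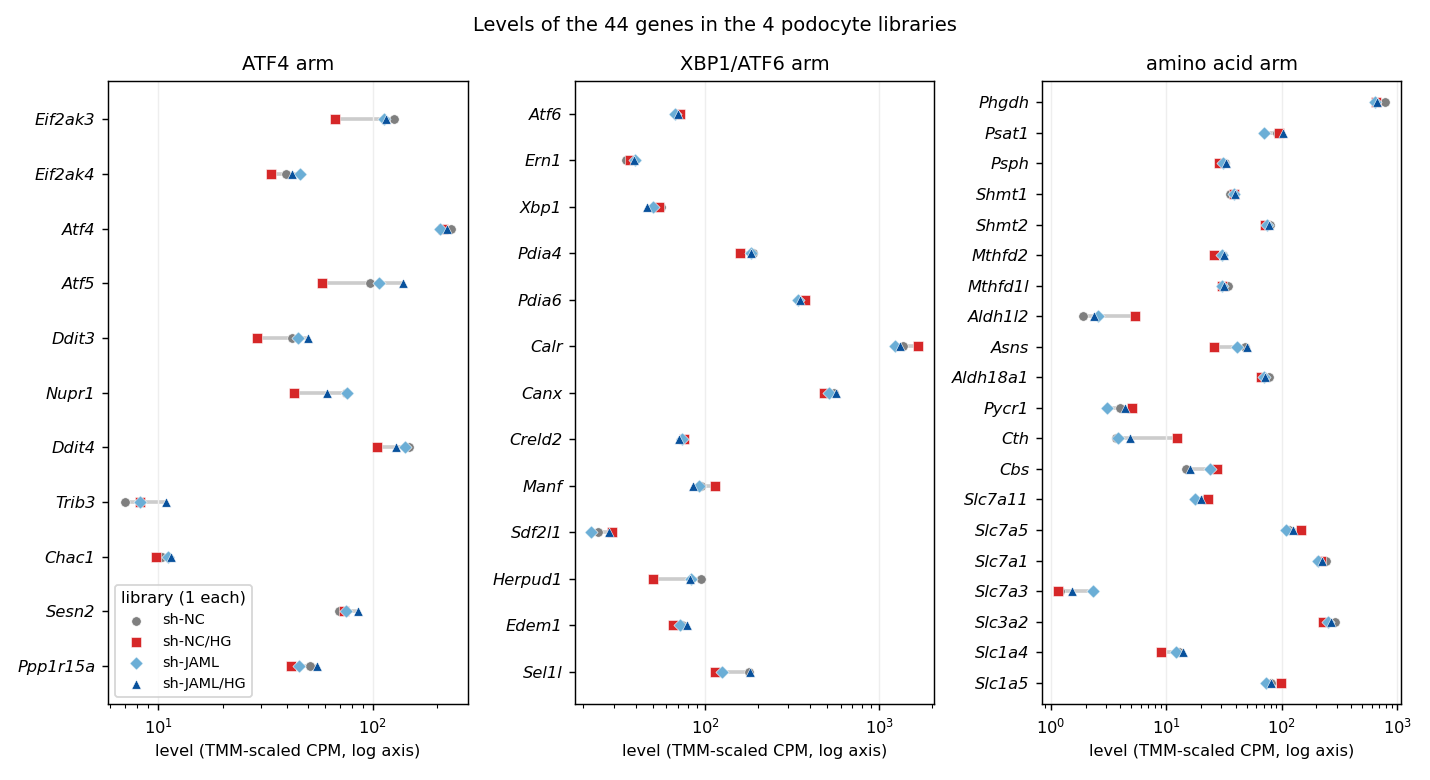
Level of each of the 44 genes (x axis, TMM-scaled CPM, log scale) in the 4 libraries, with 1 symbol per library and a grey line over the range; panels are the 3 arms. The sh-NC/HG square is the lowest of the 4 for 8 of 11 ATF4-arm genes and stands to the right of the other symbols for Cth and Aldh1l2.

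The libraries behind these counts were compared gene by gene. The sh-NC/HG library was the lowest of the 4 for 22 of 44 genes (50%, against 36.4% of all genes) and the highest for 13 (29.5%, against 36.0%). In the ATF4 arm it was the lowest for 8 of 11 and the highest for 0. It stood at least 1.5-fold below each of the other 3 libraries for 4 of the 44 genes (Eif2ak3, Atf5, Herpud1 and Asns), beside 4.56% of all genes, and at least 1.5-fold above each of them for 2 (Cth and Aldh1l2), beside 5.53%. The sh-NC library stood that far from each other library for 0 of them, beside 1.99%, sh-JAML for 1 (Slc7a3), beside 1.67%, and sh-JAML/HG for 0, beside 1.92%. Over the 3 libraries other than sh-NC/HG, 41 of 44 genes kept within a 1.5-fold range (93.2%, against 85.5% of all genes). Over all 4 libraries 30 of 44 did (68.2%, against 69.4%).

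Some promoters of the 3 arms carry letters that these factors are known to bind, and their sequences are shown to set the arms beside their values. RefSeq promoters (GRCm38.p6, 250 bases before to 50 after each start) were found for 37 of the 44 genes, and not for Aldh1l2, Atf6, Cth, Manf, Slc1a5, Slc7a3 and Slc7a5. Both strands were searched, and no matches of different motifs overlapped in the members. The C/EBP-ATF response element (CARE, TGATGNAA), to which ATF4 binds with a C/EBP partner, was in 8 of the 41 promoters of these genes (19.5%) and in 3.97% of 32851 promoters overall. It was found in Asns, Chac1, Herpud1, Nupr1, Pycr1, Slc1a4, Slc7a11 and Trib3, and 6 of these held the same letters, TGATGCAA, on one strand or the other. Printed on the gene's own strand, with CARE matches in capitals, are Asns (chr6:7693215-7693242, minus strand), Herpud1 (chr8:94386277-94386364, plus), Nupr1 (chr7:126625563-126625590, minus), Chac1 (chr2:119351009-119351096, plus), Slc7a11 (chr3:50443615-50443719, minus) and Pycr1 (chr11:120643804-120643891, minus). For Asns and Nupr1 only the 10 bases on each side are given, because a GENCODE exon covers the match.
Asns: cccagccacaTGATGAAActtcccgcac
Herpud1: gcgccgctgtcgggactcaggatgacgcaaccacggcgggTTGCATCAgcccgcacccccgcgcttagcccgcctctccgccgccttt
Nupr1: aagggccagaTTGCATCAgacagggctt
Chac1: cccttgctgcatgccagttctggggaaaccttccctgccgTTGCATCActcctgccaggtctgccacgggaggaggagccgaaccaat
Slc7a11: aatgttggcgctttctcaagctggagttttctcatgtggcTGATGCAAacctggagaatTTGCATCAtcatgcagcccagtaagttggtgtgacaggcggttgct
Pycr1: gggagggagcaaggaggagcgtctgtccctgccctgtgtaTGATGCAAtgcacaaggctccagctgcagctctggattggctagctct

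The 8 genes with a CARE match did not share one direction in sh-NC/HG. Against sh-NC, 3 of the 8 (Asns, Herpud1 and Nupr1) were at least 1.5-fold lower, beside 8.96% of all genes, and 0 higher, beside 10.0%. Of the 8, 5 were below 0, with a median log2 ratio of -0.31. Of the 29 genes whose promoters lacked the letters, 3 were lower and 1 higher. Of these 29, 20 were below 0, with a median of -0.17, beside 7065 of 14187 genes. Chac1 and Slc7a11, which hold the same TGATGCAA letters as Nupr1 and Herpud1, were within 1.07-fold of sh-NC. A match is a description of the letters and does not show binding.

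The ER stress element (ERSE, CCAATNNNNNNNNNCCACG), read by ATF6 together with NF-Y, was in 4 of the 11 XBP1/ATF6-arm promoters and in 0 of the other members' promoters, against 0.119% of all promoters. These were Calr (chr8:84847035-84847133, minus), Canx (chr11:50325760-50325858, minus), Pdia6 (chr12:17266451-17266544, plus) and Creld2 (chr15:88819480-88819578, plus). Capitals mark the fixed letters on either side of the 9 free bases.
Calr: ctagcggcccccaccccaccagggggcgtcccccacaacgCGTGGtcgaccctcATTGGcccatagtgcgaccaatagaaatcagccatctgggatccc
Canx: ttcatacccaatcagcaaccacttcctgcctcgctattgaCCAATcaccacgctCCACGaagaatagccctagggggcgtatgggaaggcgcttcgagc
Pdia6: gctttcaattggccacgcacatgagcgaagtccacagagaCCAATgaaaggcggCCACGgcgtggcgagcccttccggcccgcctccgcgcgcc
Creld2: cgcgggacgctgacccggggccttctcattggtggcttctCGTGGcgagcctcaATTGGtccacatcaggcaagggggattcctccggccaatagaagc

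None of these 4 genes was 1.5-fold apart in any pair. Their median log2 ratio was 0.02 in sh-NC/HG over sh-NC and -0.11 in sh-JAML against sh-NC, where all 4 were below 0. In that pair 23 of the 33 members whose promoters lacked ERSE were below 0 too (median -0.08), beside 7040 of 14187 genes. The cAMP response palindrome TGACGTCA was in 1 member, Ppp1r15a, against 1.79% of all promoters. The XBP1-binding core TGACGTG was in 0 members, against 2.01% of all promoters, which says only that these letters are not in the windows searched.

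Compared per exon length, the arms spanned a wide range of levels. Calr, the calcium-binding lectin chaperone calreticulin, had the highest mean level at 485 CPM per kb. Phgdh, which catalyses the committed step of serine synthesis, followed at 277 CPM per kb. Canx stood at 112, Pdia6 at 95.8 and Atf4 at 92.3 CPM per kb. At the other end Pycr1 stood at 1.05, Slc7a3 at 0.411 and Aldh1l2 at 0.407 CPM per kb. Slc7a3 had only 95 to 187 units in a library and Aldh1l2 151 to 499, so their ratios carry the widest counting intervals of the 44 genes.

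**Figure D2:**
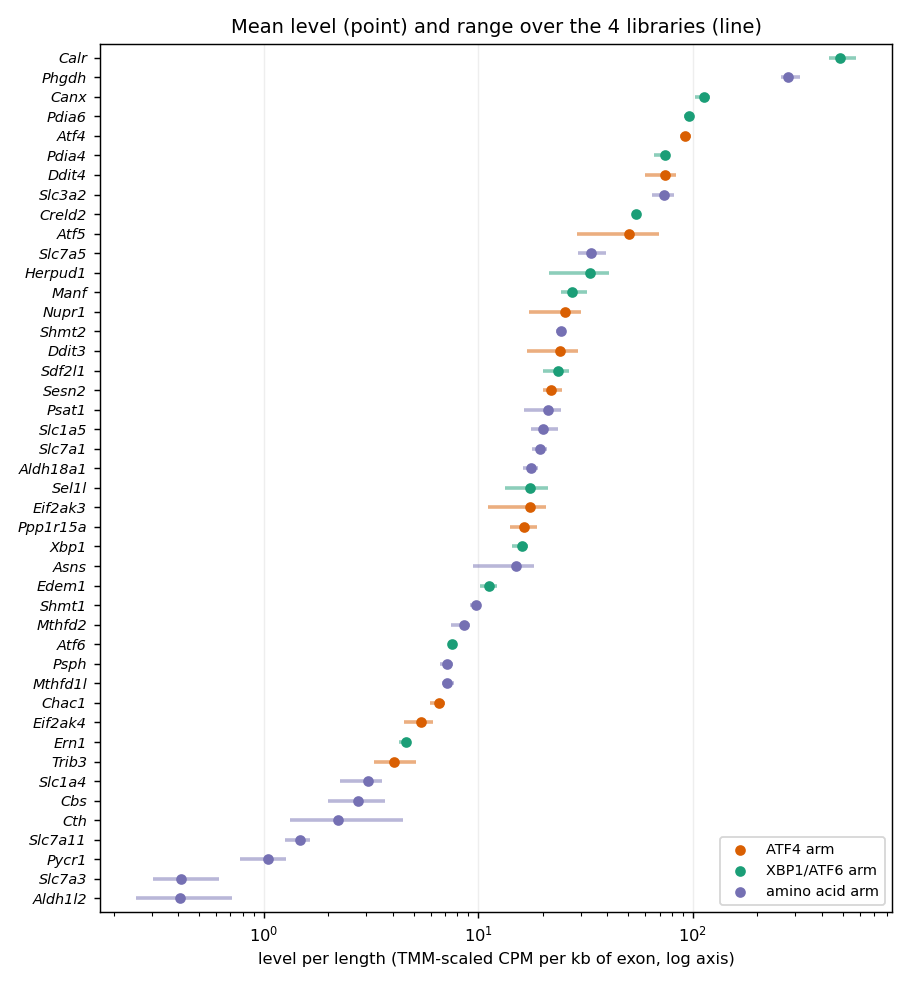
Mean level of each gene over the 4 libraries (point, x axis in TMM-scaled CPM per kb of exon, log scale) and its range over the libraries (line), coloured by arm. Calr and Phgdh stand apart at the top, and the lowest 7 genes are all of the amino acid arm.

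In the ATF4 arm, the eIF2 kinases differed from each other. Eif2ak3, which encodes PERK (chromosome 6, 70844515 to 70905245), stood at 125 CPM (sh-NC), 66.9 (sh-NC/HG), 113 (sh-JAML) and 116 (sh-JAML/HG). The sh-NC/HG library was the low one, and the other 3 lay close together. Eif2ak3 was 1.87-fold lower (1.76 to 1.997) in sh-NC/HG relative to sh-NC and 1.02-fold higher (0.967 to 1.08) in sh-JAML/HG than in sh-JAML. Eif2ak4, which encodes the uncharged-tRNA sensor GCN2, stood at 39.3, 33.6, 45.7 and 42.1 CPM in the same order. Its levels were likewise lowest in sh-NC/HG, by 1.17-fold (1.06 to 1.30) against sh-NC.

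Atf4, the factor at the centre of the arm (chromosome 15, 80255184 to 80257541), stood at 232 CPM (sh-NC), 212 (sh-NC/HG), 205 (sh-JAML) and 222 (sh-JAML/HG), a range of 1.13-fold. ATF4 is known to be controlled largely at translation, which these counts do not measure. Atf5, a related bZIP factor (chromosome 7, 44812256 to 44816658), stood at 97.2, 57.8, 107 and 139 CPM. It was 1.68-fold lower (1.57 to 1.805) with glucose in control cells and 1.29-fold higher (1.22 to 1.37) with glucose in sh-JAML cells, and 2.40-fold higher (2.25 to 2.56) in sh-JAML/HG than in sh-NC/HG. That was the largest ratio of the arm in any pair. Ddit3, which encodes the pro-apoptotic factor CHOP (chromosome 10, 127290774 to 127296288), stood at 42.0, 28.9, 44.6 and 50.1 CPM. It was 1.45-fold lower (1.31 to 1.61) in sh-NC/HG relative to sh-NC and 1.73-fold lower than in sh-JAML/HG (1.57 to 1.91). It shares 10.9% of its exon bases with other genes of the table. The largest partner is a second Ddit3 row of 105 exon bases, too short to hold all of that overlap. That row had a count of 1 in each library and was left out. Nupr1, a small stress-induced chromatin protein gene (chromosome 7, 126623249 to 126630861), stood at 74.7, 43.1, 76.0 and 61.4 CPM. Unlike Atf5 and Ddit3 it was lower with glucose under both hairpins, by 1.73-fold (1.60 to 1.88) in control cells and 1.24-fold (1.15 to 1.33) in sh-JAML cells.

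The feedback and stress targets of ATF4 ranged over the 4 libraries by 1.17-fold (Chac1) to 1.55-fold (Trib3). Trib3, a pseudokinase that restrains ATF4 and AKT, stood at 6.97 CPM (sh-NC), 8.20 (sh-NC/HG), 8.24 (sh-JAML) and 10.8 (sh-JAML/HG). Glucose libraries were the higher ones under both hairpins, by 1.18-fold (0.943 to 1.48) and 1.32-fold (1.07 to 1.62), the former within counting error. Chac1, which encodes a glutathione-degrading enzyme strongly driven by ATF4, stood at 10.5, 9.78, 11.1 and 11.5 CPM, and all 4 pairs were within counting error. The remaining 3 genes were Ddit4 and Sesn2, which restrain mTORC1, and Ppp1r15a, which directs a phosphatase to eIF2. They ranged over the libraries by 1.23-fold to 1.40-fold, between 41.5 and 147 CPM, and sh-NC/HG was lowest for 2 of them.

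In the XBP1/ATF6 arm, the sensors and the factor hardly differed between libraries. Atf6, the membrane-bound factor released by cleavage, stood at 69.8 CPM (sh-NC), 72.2 (sh-NC/HG), 67.0 (sh-JAML) and 70.4 (sh-JAML/HG). Ern1, which encodes IRE1, stood at 35.0, 37.3, 39.5 and 39.0 CPM, and Xbp1 mRNA, spliced and unspliced together, at 55.6, 54.7, 50.2 and 46.7 CPM. The lowest Xbp1 level was in sh-JAML/HG, 1.17-fold (1.08 to 1.28) below sh-NC/HG. None of the 3 was 1.5-fold apart in any pair.

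Folding and chaperone genes had small differences as well. Manf, which encodes an ER-resident protein secreted under stress, stood at 94.8 CPM (sh-NC), 113 (sh-NC/HG), 91.8 (sh-JAML) and 85.4 (sh-JAML/HG). It was 1.20-fold higher (1.13 to 1.27) with glucose in control cells and 1.08-fold lower (1.01 to 1.15) in sh-JAML cells. Sdf2l1, a partner of the ER chaperone BiP, stood at 24.4, 29.4, 22.2 and 28.0 CPM, and was higher in both glucose libraries, by 1.21-fold (1.07 to 1.36) and 1.26-fold (1.11 to 1.43). The disulfide isomerase genes Pdia4 and Pdia6, the lectin chaperone genes Calr and Canx, Creld2 and the degradation gene Edem1 ranged by 1.07-fold to 1.35-fold over the libraries, and sh-NC/HG was lowest for 3 and highest for 3 of these 6. In sh-JAML against sh-NC, 12 of the 13 genes of the arm were below 0, all 7 folding genes among them, beside 7040 of 14187 genes tested. Of all 44 members 31 were below 0 in that pair, with 4 of 11 in the ATF4 arm. Of 25 other degradation, translocation and sensor genes 22 were. The arm's median was only -0.10, and the intervals of Atf6, Pdia4, Creld2, Manf, Sdf2l1 and Edem1 included 1.

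The larger differences of this arm were in 2 of its 3 genes of ER-associated degradation, which carries misfolded proteins back to the cytosol. Herpud1, a membrane adaptor of the degradation complex (chromosome 8, 94386438 to 94395377), stood at 95.2 CPM (sh-NC), 49.9 (sh-NC/HG), 82.8 (sh-JAML) and 81.8 (sh-JAML/HG). Only sh-NC/HG was low. Herpud1 was 1.91-fold lower (1.77 to 2.05) there than in sh-NC, and 1.01-fold lower (0.946 to 1.08) in sh-JAML/HG than in sh-JAML. Sel1l, the partner of the ubiquitin ligase HRD1 (chromosome 12, 91806043 to 91849157), had another pattern, at 180, 114, 125 and 180 CPM. Here sh-NC/HG and sh-JAML were both low and sh-NC and sh-JAML/HG both high. Sel1l was 1.57-fold lower (1.496 to 1.66) with glucose in control cells, 1.45-fold higher (1.38 to 1.52) with glucose in sh-JAML cells, and 1.44-fold lower (1.37 to 1.52) in sh-JAML than in sh-NC.

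In the amino acid arm, 2 of the 3 serine synthesis enzymes, Phgdh and Psat1, were lower in sh-JAML than in sh-NC. Phgdh (chromosome 3, 98313170 to 98339990) stood at 783 CPM (sh-NC), 657 (sh-NC/HG), 643 (sh-JAML) and 668 (sh-JAML/HG), so sh-NC was the high one. It was 1.22-fold lower (1.19 to 1.25) in sh-JAML than in sh-NC and 1.19-fold lower (1.17 to 1.22) in sh-NC/HG relative to sh-NC. Psat1, the transaminase of the pathway (chromosome 19, 15904678 to 15947337), stood at 91.7, 94.3, 69.7 and 103 CPM. Its low library was sh-JAML, 1.32-fold (1.23 to 1.41) below sh-NC and 1.48-fold (1.38 to 1.59) below sh-JAML/HG. Psph, the phosphatase that ends the pathway, stood at 32.0, 28.7, 30.7 and 33.0 CPM, within counting error between sh-JAML and sh-NC. It shares 10.4% of its exon bases with the opposite-strand gene Cct6a, and the strandedness of the counting is not given in the sources used here.

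Folate one-carbon genes were flat apart from one low-level gene. Shmt2, the mitochondrial enzyme that turns serine into glycine, stood at 79.1 CPM (sh-NC), 71.5 (sh-NC/HG), 75.0 (sh-JAML) and 76.9 (sh-JAML/HG). Mthfd2, the mitochondrial folate dehydrogenase, stood at 31.1, 26.0, 30.6 and 31.8 CPM, 1.20-fold lower (1.07 to 1.34) in sh-NC/HG relative to sh-NC. Aldh1l2, the mitochondrial formyl-folate dehydrogenase gene (chromosome 10, 83487450 to 83534140), stood at 1.90, 5.35, 2.56 and 2.39 CPM. Its sh-NC/HG level was the high one, 2.81-fold above sh-NC (1.94 to 4.14) and 2.23-fold above sh-JAML/HG (1.62 to 3.21). Aldh1l2 shares 14.1% of its exon bases with an opposite-strand gene.

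Asns, asparagine synthetase and a textbook ATF4 target (chromosome 6, 7675169 to 7693254), stood at 47.6 CPM (sh-NC), 25.9 (sh-NC/HG), 41.1 (sh-JAML) and 49.96 (sh-JAML/HG). The glucose difference ran in opposite directions under the hairpins: Asns was 1.84-fold lower (1.66 to 2.04) in control cells and 1.22-fold higher (1.11 to 1.33) in sh-JAML cells. Between the glucose libraries it was 1.93-fold higher (1.74 to 2.14) with the Jaml hairpin. The proline synthesis genes Aldh18a1 and Pycr1, with Shmt1, Mthfd1l, Slc7a1 and Slc1a5, ranged by 1.09-fold to 1.65-fold over the libraries at levels of 3.04 to 242 CPM, and sh-NC/HG was lowest for 2 and highest for 2 of these 6.

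The transsulfuration genes, which pass sulfur from homocysteine to cysteine, included the largest ratio of the set. Cth, cystathionine gamma-lyase (chromosome 3, 157894248 to 157925077), stood at 3.70 CPM (sh-NC), 12.5 (sh-NC/HG), 3.82 (sh-JAML) and 4.88 (sh-JAML/HG). The sh-NC/HG level was 3.36-fold above sh-NC (2.58 to 4.37) and 2.55-fold above sh-JAML/HG (2.03 to 3.23). Cbs, cystathionine beta-synthase (chromosome 17, 31608894 to 31637238), stood at 14.9, 27.6, 23.8 and 16.2 CPM, with sh-NC/HG and sh-JAML high and the other libraries low. With glucose it was 1.85-fold higher (1.61 to 2.13) in control cells and 1.47-fold lower (1.28 to 1.70) in sh-JAML cells. Without added glucose it was 1.60-fold higher (1.38 to 1.86) in sh-JAML than in sh-NC.

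Amino acid transporters did not share one direction. Slc7a11, the cystine-glutamate exchanger, stood at 21.7 CPM (sh-NC), 22.8 (sh-NC/HG), 17.6 (sh-JAML) and 20.0 (sh-JAML/HG). Slc7a5, the large neutral amino acid transporter LAT1, stood at 116, 146, 108 and 126 CPM, with both glucose libraries above their partners, by 1.25-fold (1.19 to 1.32) and 1.16-fold (1.09 to 1.23). Slc3a2, the heavy chain shared by both of these transporters, stood at 290, 228, 250 and 267 CPM. In control cells it ran against Slc7a5, 1.27-fold lower (1.23 to 1.32) with glucose. Slc1a4, a neutral amino acid exchanger, stood at 12.9, 8.93, 12.3 and 13.9 CPM, 1.44-fold lower (1.20 to 1.74) in sh-NC/HG relative to sh-NC and 1.56-fold lower than in sh-JAML/HG (1.30 to 1.87). Slc7a3, a cationic amino acid transporter at a low level, stood at 1.20, 1.16, 2.33 and 1.53 CPM. It was 1.94-fold higher (1.16 to 3.32) in sh-JAML than in sh-NC and 1.52-fold lower in sh-JAML/HG than in sh-JAML, an interval (0.967 to 2.51) that includes 1.

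**Figure D3:**
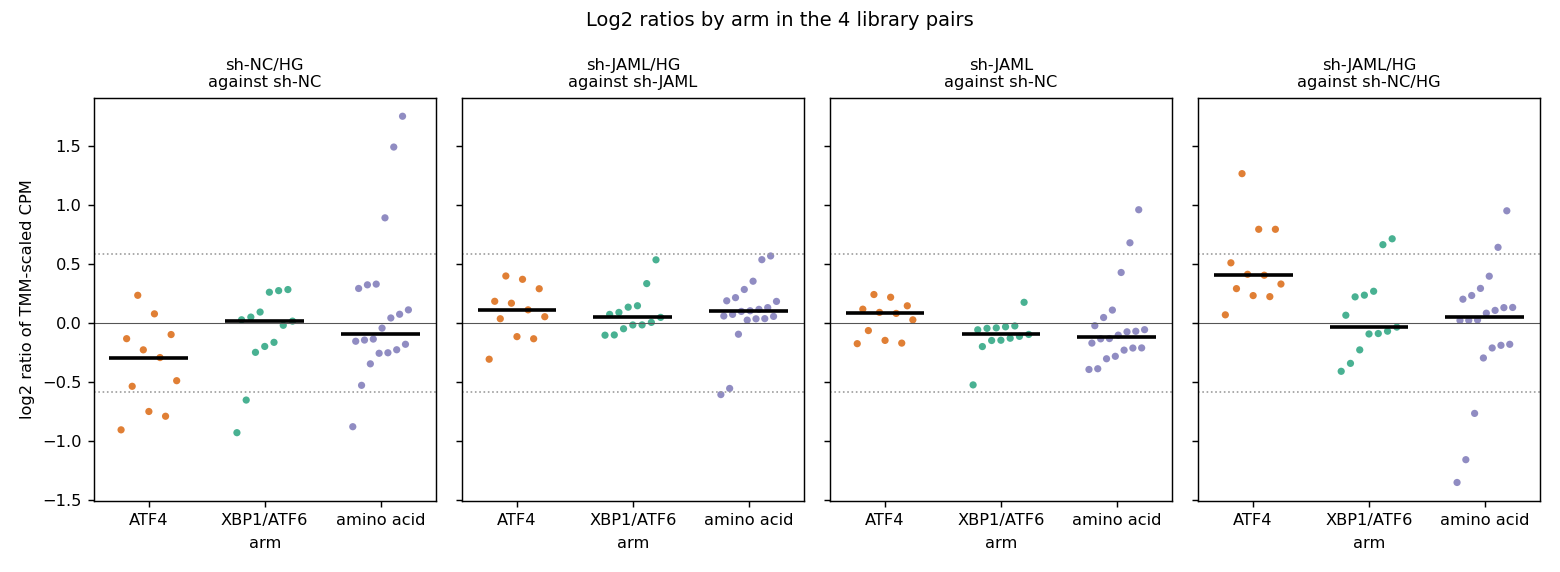
Log2 ratio of each gene (y axis, 1 point per gene) by arm in the 4 library pairs, with the arm median as a black bar and dotted lines at 1.5-fold. The ATF4 arm has a median of -0.29 in sh-NC/HG over sh-NC and 0.40 in sh-JAML/HG against sh-NC/HG, 2 pairs that share the sh-NC/HG library.

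The glucose comparisons under the 2 hairpins share no library, and they were set side by side. Of the 9 genes at least 1.5-fold apart in control cells, 0 were 1.5-fold apart in sh-JAML cells. Over all genes, 558 of 2695 apart in control cells were also apart in sh-JAML cells (20.7%). In sh-JAML cells, 4 of the 9 (Cth, Herpud1, Eif2ak3 and Aldh1l2) were within counting error. Of the other 5, Nupr1 had the same direction as in control cells and 4 (Atf5, Asns, Sel1l and Cbs) the opposite one. Over all 44 genes, 19 had the same sign under both hairpins (43.2%, against 51.4% of all genes). The glucose medians in sh-JAML cells were small, at 0.11 in the ATF4 arm, 0.05 in the XBP1/ATF6 arm and 0.10 in the amino acid arm. In the amino acid arm 17 of 20 genes were above 0 there, beside 33 of all 44 members and 7076 of 14187 genes tested. The hairpin comparisons without and with added glucose, which share no library either, had the same sign for 21 of 44 genes (47.7%, against 51.9%). Cbs was 1.5-fold apart in both of them, in opposite directions.

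**Figure D4:**
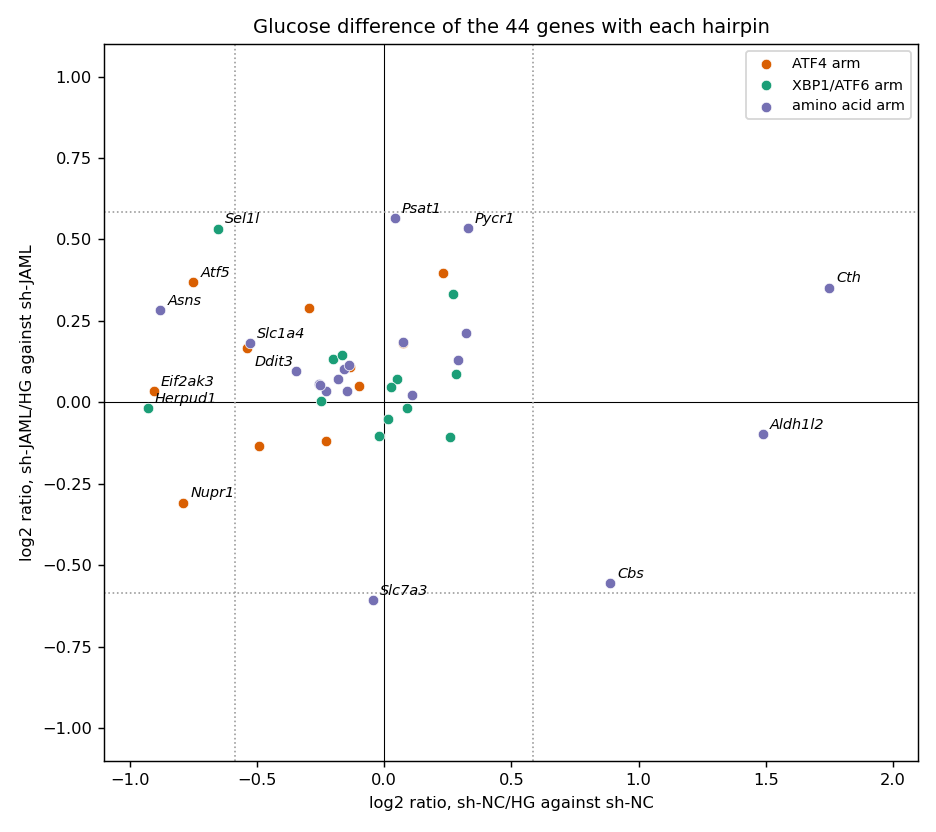
Log2 ratio with glucose in control-hairpin cells (x axis) against that in Jaml-hairpin cells (y axis) for the 44 genes, coloured by arm, with dotted lines at 1.5-fold; genes past 0.5 on either axis are named. Points spread along the x axis, from Herpud1 at -0.93 to Cth at 1.75, and only Slc7a3 passes the dotted line on the y axis.

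An additive model over all 4 libraries, with terms for hairpin and glucose, uses the disagreement between the hairpins (or between the glucose levels) as its error. With edgeR's quasi-likelihood test and Benjamini-Hochberg adjustment over 14187 genes, it called 1 gene for glucose (0.00705%), the protocadherin gene Pcdhgb4, named after its value was seen, and 0 for the hairpin (0%). None of the 44 genes was called. At an unadjusted p under 0.05, 397 genes passed for glucose and 400 for the hairpin. Among the 44, only Nupr1 did for glucose (log2 difference -0.55, SE 0.16, unadjusted p = 0.0281, edgeR adjusted p = 0.927), and 0 did for the hairpin. DESeq2 called 53 genes for glucose (0.374%) and 48 for the hairpin (0.338%), with 0 of the 44 in either, and limma-voom called 0 and 0. With 1 residual degree of freedom, a gene whose glucose difference turns with the hairpin, such as Atf5, Asns, Sel1l or Cbs, has a large error in this model.

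Other genes of the same pathways were read from lists of 136 symbols, of which 122 genes had a mean count of at least 50. None of them was called in the additive model by edgeR or DESeq2. Hspa5, which encodes BiP, the main ER chaperone and a sensor regulator, stood at 708 CPM (sh-NC), 524 (sh-NC/HG), 367 (sh-JAML) and 384 (sh-JAML/HG). It was 1.93-fold lower (1.88 to 1.99) in sh-JAML than in sh-NC, against at most 1.44-fold for a member of the XBP1/ATF6 arm in that pair. Hsp90b1, its ER partner GRP94, stood at 536, 575, 508 and 541 CPM and was within 1.07-fold in each of the 4 pairs. Txndc5, a thioredoxin-domain ER protein, was low in sh-NC alone, at 205, 356, 365 and 368 CPM. Dnajb9, an XBP1-driven co-chaperone of BiP, was low in sh-NC/HG alone, at 45.9, 22.0, 43.8 and 41.5 CPM, 2.09-fold below sh-NC (1.87 to 2.33), as Herpud1 was.

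Of 19 other ER folding genes, sh-NC/HG had 1 at least 1.5-fold above sh-NC and 1 at least that far below it. Of 25 other degradation and sensor genes 1 was higher, the membrane-bound factor gene Creb3l1 (1.65-fold, 1.39 to 1.97), and 0 lower. Among 24 other integrated stress response genes 4 were higher and 2 lower. Beside these counts, 10.0% of all genes were higher and 8.96% lower in this pair. The bZIP factor gene Cebpd stood at 9.43, 42.5, 6.88 and 6.38 CPM, 4.50-fold above sh-NC (3.86 to 5.30), and Atf3 at 11.3, 26.2, 11.3 and 10.3 CPM, 2.31-fold above it (1.98 to 2.70). Stc2, a secreted glycoprotein gene driven by ATF4, stood at 428, 230, 419 and 359 CPM, 1.86-fold below sh-NC (1.797 to 1.92), and the apoptosis gene Bbc3 at 76.2, 43.0, 80.6 and 88.2 CPM, 1.77-fold below it (1.64 to 1.92). So among the genes named here some were high and others low in the same library. Gdf15 stood between 246 and 314 CPM and Cebpb between 20.9 and 24.6 CPM. Of the genes named from these lists, Cebpd, Cebpb, Hsp90b1, Txndc5 and Srr share 11.9% to 29.96% of their exon bases with another gene.

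The 20 cytosolic aminoacyl-tRNA synthetase genes, some of which ATF4 also drives, had 0 members 1.5-fold apart in any of the 4 pairs. Their medians lay between -0.07 and 0.01. Of all genes, 3.57% to 10.0% were that far apart in a given direction of a pair. Of 22 other serine, glycine, proline and folate genes, 2 were at least 1.5-fold higher in sh-NC/HG relative to sh-NC, beside 10.0% of all genes. The proline oxidase gene Prodh, at 1.25, 3.85, 1.82 and 1.35 CPM, was 3.07-fold higher (1.95 to 4.99), and in sh-JAML against sh-NC the serine racemase gene Srr was 1.502-fold higher (1.32 to 1.71). Of 13 other amino acid transporters, 1 was higher in sh-NC/HG relative to sh-NC (Slc1a2, 2.16-fold, 1.28 to 3.67), beside 10.0% of all genes. Another 1 was lower (Slc7a7, 1.70-fold, 1.36 to 2.15), beside 8.96%. In sh-JAML/HG against sh-JAML 2 were lower, beside 4.18%, Slc1a2 by 3.71-fold (1.52 to 11.7) among them. Slc1a2 stood at 1.08, 2.35, 1.09 and 0.284 CPM and had only 24 units in sh-JAML/HG. Slc38a2, the amino acid-regulated transporter SNAT2, stood at 822, 744, 820 and 620 CPM.

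**Figure D5:**
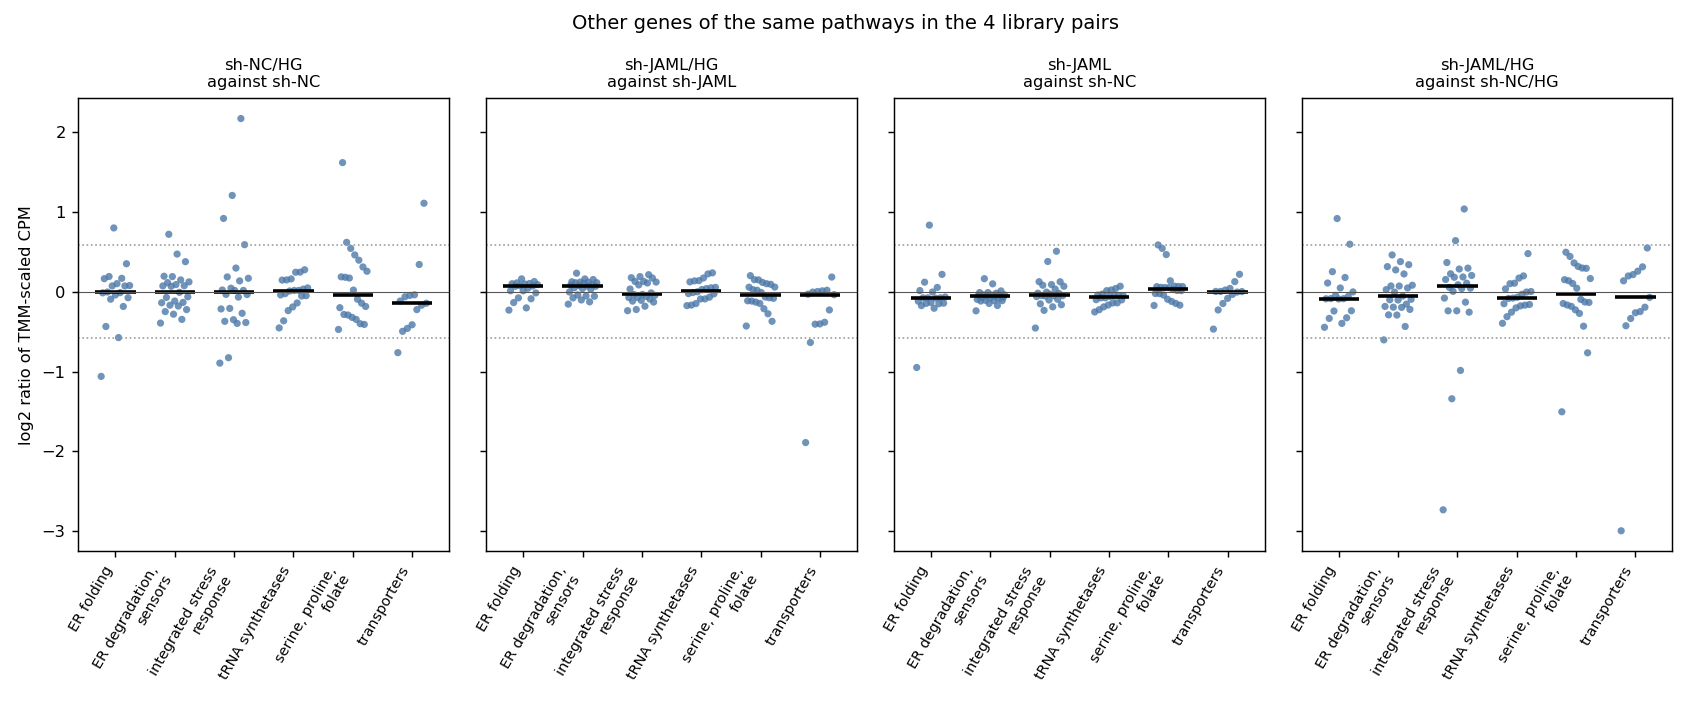
Log2 ratio (y axis) of other genes of the same pathways in 6 lists for the 4 library pairs, 1 point per gene, with the list median as a black bar and dotted lines at 1.5-fold. The list medians lie between -0.14 and 0.07, and the tRNA synthetases stay inside the dotted lines in every pair.

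Beside the differences of sh-NC/HG, other RNA classes of that library also stood apart. The 13 mitochondrially encoded protein genes had a median log2 ratio of -0.74 in sh-NC/HG over sh-NC, with 10 of 13 at least 1.5-fold lower, against 0.10 in sh-JAML/HG against sh-JAML. Their share of counts was 1.33% in sh-NC/HG and 1.95% to 2.15% in the other 3 libraries. Of 31 replication-dependent histone genes, 27 were lower in the sh-NC/HG library by 1.5-fold or more, relative to sh-NC, with a median of -1.17. Their part in the differences of the 44 genes was not tested. Marker lists of other cell types, in summed CPM over the libraries, ranged from 852 to 1335 for tubule, 830 to 1235 for mesangial and fibroblast, 58.2 to 68.3 for leukocyte and 4.38 to 7.34 for endothelial genes. The tubule and endothelial sums were highest in sh-NC/HG, and the mesangial and fibroblast sum was highest in sh-NC and lowest in sh-NC/HG. That last sum was mostly Acta2 (1071, 678, 730 and 743 CPM). Of its 5 genes past the count minimum, 2 were above sh-NC in sh-NC/HG and 3 below. The 2 were Dcn (0.428 against 6.45 CPM in sh-NC/HG) and Des (0.453 against 2.32). In the endothelial list Flt1 was highest in sh-NC/HG (3.79 CPM, against 1.02 in sh-NC) and Eng lowest (2.92, against 4.15). The leukocyte sum was mostly Csf1r (62.2, 50.1, 56.0 and 56.3 CPM). Lyz2 stood at 2.14, 3.03, 2.02 and 0.0592 CPM, with 5 units in sh-JAML/HG, and Cd68 at 3.12, 3.85, 2.99 and 3.10 CPM. Leukocyte markers at or above the floor numbered 6, 7, 5 and 2 of 10 in the same order. Erythroid markers summed to 53.0 CPM in sh-NC and 57.5 in sh-JAML, against 14.4 with glucose in control cells and 14.6 in sh-JAML/HG. At most 5 of 10 tubule markers reached the floor in a library. Cdh16 (438 to 738 CPM) and Lrp2 (233 to 421 CPM) were both highest in sh-NC/HG and lowest in sh-JAML/HG, Pax8 stood at 173 to 192 CPM, and Slc34a1 and Umod were at 0 in every library. The part of these markers in the results was not tested.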

How the data were processed

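The authors deposited 1 table of estimated counts per Ensembl gene and library, with no scaling between libraries; values were used as whole numbers, as deposited. Reads went through CASAVA 1.8 and TopHat2 2.0.6 on mm10, per the submitters' processing notes. The sources used here do not name the counting tool or annotation. The columns name conditions: those for control and for high glucose name no hairpin and were matched to sh-NC and sh-NC/HG by name. Though the design text counts 4 treated and 4 untreated samples, the table has 4 libraries in all. Nothing in the labels gives separate cultures per group.

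Low values piled up at multiples of 4 (1.51 to 2.11 times the genes expected from the neighbouring even values at 4, 8 and 12), so counting intervals and the floor of 3 fragments used the values divided by 4. Symbols and mm10 positions came from GENCODE M21, which matched 55480 genes and left 913 unmatched. A mean count of 50 was required. Counts were scaled with TMM (R 4.3.3, edgeR 4.0.16), with a prior count of 1 in log2 ratios. The additive model was fitted with edgeR's quasi-likelihood test over all genes, with Benjamini-Hochberg adjustment at 0.05; DESeq2 1.42.0 and limma 3.58.1 (voom) were alternatives. Other values came from Python 3.11.15, numpy 2.4.6, pandas 2.3.3, scipy 1.17.1 and matplotlib 3.10.9.

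Values in all 4 libraries are given for a set of regulators and marker genes of each arm and for every further member at least 1.5-fold apart in a pair, 29 in all; the other 15 are given by counts and range. From the pathway lists, 7 chosen genes and the highest and lowest genes at least 1.5-fold apart were named. The members and lists were chosen with earlier results of these data known.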

Additional observations from a re-analysis of the deposited data

Results flagged for a closer look

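For 4 genes the glucose difference ran in opposite directions under the hairpins, with both counting intervals leaving out a ratio of 1 and at least 1 of the differences reaching 1.5-fold. The log2 difference with glucose in sh-JAML cells minus that in sh-NC cells was 1.12 for Atf5, 1.19 for Sel1l, 1.16 for Asns and -1.45 for Cbs. The share of all genes that meet this rule is not given here. Over all genes, 51.4% had the same sign of the glucose difference under both hairpins. With 1 library per group, the difference between the hairpins was not tested.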

How the results depend on the processing

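No paired analysis was possible because each group has 1 library and the labels give no replicate numbers. For the same reason no library could be left out of a pair, and the additive model without sh-NC/HG has no residual degrees of freedom. Other scaling, count minimums, prior counts and library totals, with values divided by 4 and members with under 10% shared exon bases (both chosen after seeing the data), left 77 of 88 counts within 1.5 times their value, and the medians of the arms kept their sign in 72 of 72 recalculations, with shifts of at most 0.04. Ratios of single members moved by at most 0.058 in 692 recalculations. With no scaling beyond the library total, 2 moved beyond counting error, both of Phgdh (from -0.28 to -0.25 in sh-JAML against sh-NC and from 0.02 to 0.06 in sh-JAML/HG against sh-NC/HG), and 1 changed sign, Mthfd2 in sh-JAML against sh-NC (from -0.02 to 0.01). At 2-fold in place of 1.5-fold, 0 members were lower in sh-NC/HG against sh-NC (3.27% of all genes), 0 lower in sh-JAML/HG against sh-JAML (1.56%), 0 higher in sh-JAML against sh-NC (1.31%) and 1 higher in sh-JAML/HG against sh-NC/HG (2.81%). The single lower gene of sh-JAML/HG against sh-JAML, Slc7a3, was lost with a mean count of at least 200 (0) and with a prior count of 10 (0), and a mean count of at least 200 left 1 higher in sh-JAML against sh-NC. The glucose effect called 53 genes with DESeq2, 0 with limma-voom and 0 with no count minimum, against 1, and the hairpin effect 48 with DESeq2, against 0. The cause of these differences between tools was not tested. Depth limited the lowest genes: Slc7a3 and Aldh1l2 had 95 to 187 and 151 to 499 units per library.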
